A study of Homo sapiens with 6 samples.

Results

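Expression of 7 genes of the ADP-ribosyltransferase (PARP) system was examined in KGN cells, an established human line from an ovarian granulosa cell tumour, after knockdown of OGT. The genes are PARP9, its partner DTX3L, PARP10, PARP12 and PARP14, which interferon induces, and PARP1 and PARP2, family members outside the interferon response. The genes were listed by name, with earlier results of these data known. All 7 were found among the 20036 genes of the table, and all 7 passed the filter of a mean of at least 1 FPKM, a read level scaled by gene length and library size, that left 10547 genes for testing.

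The series asked how loss of OGT, the O-GlcNAc transferase, changes gene expression. KGN cells, labelled as of wild-type genotype, were kept in DMEM/F12 medium with 10% serum. These cells were transfected through Lipofectamine 3000 with a negative control siRNA (siNC) or 1 of 2 siRNAs against OGT (siOGT1, siOGT2). They were harvested 48 h later, and each group has 2 libraries of total RNA. The cells of every group are 1 cell line and all were transfected, and cells that were not transfected were not analysed here. Nothing in the labels says that the 2 libraries of a group came from separate cultures, so the p-values measure the spread between these libraries, which may be technical.

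PARP enzymes transfer ADP-ribose from NAD+ to proteins or nucleic acids. PARP1 and PARP2 build poly-ADP-ribose chains at DNA breaks, whereas most of the interferon-induced members add single ADP-ribose units or only read the mark. Type I interferon acts through receptor-bound kinases and transcription factors that bind the interferon-stimulated response element (ISRE) in the promoters of induced genes, and interferon gamma acts at the gamma-activated site (GAS).

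The promoters are shown first because 3 of the induced genes are neighbours on chromosome 3 and a pair of them shares promoter sequence. RefSeq promoters on GRCh38.p14, from 250 bases before to 50 bases after the start, were matched for 6 of the 7 genes, all but PARP10. In the sequences, capitals mark matches to GAAANNGAA, the core of the ISRE, or to TTCNNNGAA, the GAS, searched on both strands. The first 3 lines are induced genes with an ISRE core close to the start, and the last 2 are the comparison genes.
DTX3L, chr3:122564088-122564387, plus strand: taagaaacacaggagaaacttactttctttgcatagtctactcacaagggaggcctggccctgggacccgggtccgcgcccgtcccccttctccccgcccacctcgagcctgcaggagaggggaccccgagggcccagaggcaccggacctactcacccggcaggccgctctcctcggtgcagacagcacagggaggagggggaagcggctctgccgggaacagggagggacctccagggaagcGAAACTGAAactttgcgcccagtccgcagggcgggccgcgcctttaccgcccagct
PARP14, chr3:122680589-122680888, plus strand: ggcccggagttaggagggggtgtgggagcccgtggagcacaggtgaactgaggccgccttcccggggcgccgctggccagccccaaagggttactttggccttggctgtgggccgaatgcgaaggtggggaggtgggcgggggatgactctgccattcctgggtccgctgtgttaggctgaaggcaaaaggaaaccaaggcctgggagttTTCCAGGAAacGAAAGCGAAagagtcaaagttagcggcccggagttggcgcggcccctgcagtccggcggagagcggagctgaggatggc
PARP12, chr7:140062902-140063201, minus strand: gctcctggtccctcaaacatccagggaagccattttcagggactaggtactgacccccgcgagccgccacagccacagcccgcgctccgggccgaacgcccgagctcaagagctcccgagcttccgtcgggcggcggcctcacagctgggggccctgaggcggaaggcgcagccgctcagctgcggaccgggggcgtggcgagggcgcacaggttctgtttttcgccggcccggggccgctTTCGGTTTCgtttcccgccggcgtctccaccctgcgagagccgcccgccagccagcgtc
PARP2, chr14:20343385-20343684, plus strand: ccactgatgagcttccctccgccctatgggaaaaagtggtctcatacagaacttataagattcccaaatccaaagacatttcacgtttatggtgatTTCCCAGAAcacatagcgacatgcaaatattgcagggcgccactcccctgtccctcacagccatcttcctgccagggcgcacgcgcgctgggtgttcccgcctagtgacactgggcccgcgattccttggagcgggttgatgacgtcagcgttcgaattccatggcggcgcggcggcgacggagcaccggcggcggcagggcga
PARP1, chr1:226408044-226408343, minus strand: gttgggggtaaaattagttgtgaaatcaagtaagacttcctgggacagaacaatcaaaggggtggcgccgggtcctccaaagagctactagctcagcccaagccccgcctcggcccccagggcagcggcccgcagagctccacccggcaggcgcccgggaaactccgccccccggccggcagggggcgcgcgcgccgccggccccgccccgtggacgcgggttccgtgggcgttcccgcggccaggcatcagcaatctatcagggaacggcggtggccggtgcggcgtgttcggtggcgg

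The ISRE core of DTX3L is also that of PARP9. The pair is transcribed in opposite directions from RefSeq starts 38 bases apart, so that their promoter windows, of which PARP9's is chr3:122564251-122564550 on the minus strand, share 137 bases. The match GAAACTGAA lies at chr3:122564332-122564340, which is position -6 of DTX3L; on the strand of PARP9 the same bases read TTCAGTTTC and begin at position -40. PARP14 held the ISRE core GAAAGCGAA at position -29 and the GAS letters TTCCAGGAA at position -40, just upstream of it and with no base in common. PARP12 held the core on its other strand, as TTCGGTTTC, at position -9. PARP2 held no ISRE core and 1 GAS match, TTCCCAGAA, at position -154. PARP1 and a second RefSeq promoter of PARP9, chr3:122564735-122565034, held neither. Thus 4 of the 7 member promoters, of 4 genes, held the ISRE core, beside 2847 of 35116 RefSeq promoters of the same length (8.11%); the GAS letters stood in promoters of 2 member genes, beside 7.66% of all. In each of the 4 promoters with the ISRE core the match was followed by 1 more A, a longer form that 3.57% of all promoters held. PARP9 and DTX3L enter these counts with the same bases. A match describes letters and not a bound site.

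OGT itself was lower in all 4 libraries that received an siRNA against it. It stood at 22.4 and 23.4 FPKM in the siNC libraries, 13.8 and 12.9 in those of siOGT1 and 14.3 and 14.7 in those of siOGT2. Against siNC it fell by 0.74 with siOGT1 and by 0.63 with siOGT2 on the log2 scale (limma, adjusted p = 9.3e-06 and 8.88e-06), whereas siOGT1 and siOGT2 differed by -0.11 (95% confidence interval -0.21 to -0.01, adjusted p = 0.123, or 0.0357 by limma-voom). Libraries held 16596163 to 21204091 reads in genes, recovered from the FPKM values. Of 11 granulosa cell markers, 7 had a mean of at least 1 FPKM, with FOXL2 among them, whereas FSHR was at 0 in every library; the summed level of the list was 57.8 to 65.0 FPKM. Of 7 leukocyte markers none reached a mean of 1 FPKM, LYZ was at 0, and the list summed to 0.817 to 0.889 FPKM with siNC, 0.602 to 0.606 with siOGT1 and 0.475 to 0.672 with siOGT2. Of 4 epithelial markers, KRT8 and KRT18 reached that mean, and the list summed to 26.8 to 28.3, 29.3 to 30.3 and 31.9 to 34.1 FPKM in the same order of groups. The part of either list in the results was not tested. In bulk RNA, fewer cells with a transcript and less of it per cell cannot be told apart.

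All 5 interferon-induced genes were lower with both siRNAs, and lower with siOGT2 than with siOGT1, while PARP1 and PARP2 did not pass the test against siNC. With siOGT1 the 5 genes kept 66.8 to 73.2% of their mean siNC level in FPKM, and with siOGT2 48.8 to 55.04%. For each of the 5, both siNC libraries stood above both siOGT1 libraries, and these above both siOGT2 libraries. How many of all tested genes had groups without overlap was not counted, so the separation is a description only. PARP2, which did not pass against siNC, also had groups without overlap, in another order. All tests below are limma fits of log2(FPKM + 1) with Benjamini-Hochberg adjustment over the 10547 tested genes, called at an adjusted p under 0.05.

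PARP9, a macrodomain protein with little transferase activity of its own, reads ADP-ribose and works as a complex with DTX3L. Its gene (ENSG00000138496) spans 122527924 to 122564577 on the minus strand of chromosome 3 in GRCh38. It stood at 71.4 and 69.0 FPKM in the siNC libraries, 54.1 and 48.2 in those of siOGT1 and 36.5 and 33.7 in those of siOGT2. The 3 groups did not overlap. PARP9 fell by 0.45 with siOGT1 and by 0.98 with siOGT2 on the log2 scale (SE 0.0555 for each), with adjusted p-values of 0.000579 and 2.35e-06. The second value is a 1.98-fold lower level, and the 95% confidence interval of its log2 change ran from -1.11 to -0.86.

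DTX3L, a ubiquitin ligase of the deltex family that PARP9 binds, was the most abundant of the 7 genes per length. Its gene (ENSG00000163840) begins within the annotated span of PARP9, at 122564238 on the plus strand, and ends at 122575203. DTX3L stood at 174 and 173 FPKM in the siNC libraries, 134 and 120 in those of siOGT1 and 94.1 and 87.1 in those of siOGT2, again with no overlap between groups. It fell by 0.45 with siOGT1 (SE 0.0515, adjusted p = 0.000383) and by 0.93 with siOGT2 (adjusted p = 2.11e-06), a 1.91-fold lower level.

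The ratio between the partners hardly moved while both fell. PARP9 stood at 0.411 and 0.399 times the FPKM of DTX3L in the siNC libraries, 0.405 and 0.401 times in those of siOGT1 and 0.388 and 0.387 times in those of siOGT2. Both siOGT2 libraries had the lowest ratios, and the highest of the 6 was 1.06 times the lowest. The annotated exons of the pair share 217 bases; the sources used here do not say whether counting used strand, and without strand, reads there cannot be assigned to either gene. The lengths behind the FPKM of PARP9 and DTX3L are 8938 and 5768 bases, and the part of the shared bases in the ratio was not tested.

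PARP14, the largest of the family's macrodomain members, is a mono-ADP-ribosyltransferase known as a cofactor of STAT6 in interleukin-4 signalling. Its gene (ENSG00000173193) lies 3 gene positions from PARP9, at 122680618 to 122730840 on the plus strand of chromosome 3. The level was 104 and 102 FPKM in the siNC libraries, 73.8 and 64.1 in those of siOGT1 and 52.4 and 48.4 in those of siOGT2. No group overlapped another. PARP14 had the largest estimated change of the 7 genes with either siRNA, within the confidence intervals of several others: it fell by 0.58 with siOGT1 (SE 0.0600, adjusted p = 0.000212) and by 1.02 with siOGT2 (adjusted p = 3.04e-06), a 2.03-fold lower level. With siOGT2 it ranked 57 from the bottom of the 10547 tested genes by log2 fold change, and PARP9 ranked 63.

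PARP12, a mono-ADP-ribosyltransferase with zinc fingers of the CCCH type and antiviral activity, showed the same order of groups. Its gene (ENSG00000059378) lies on the minus strand of chromosome 7 at 140023744 to 140063721. It stood at 86.1 and 81.9 FPKM in the siNC libraries, 59.2 and 55.0 in those of siOGT1 and 47.1 and 44.9 in those of siOGT2, without overlap. PARP12 fell by 0.55 with siOGT1 (SE 0.0436, adjusted p = 4.68e-05) and by 0.85 with siOGT2 (adjusted p = 1.43e-06), a 1.81-fold lower level.

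PARP10, another mono-ADP-ribosyltransferase, was the least abundant of the induced genes. Its gene (ENSG00000178685) lies on the minus strand of chromosome 8 at 143977153 to 144012772. It stood at 25.7 and 24.8 FPKM in the siNC libraries, 18.2 and 16.5 in those of siOGT1 and 13.6 and 14.2 in those of siOGT2. These groups did not overlap either. PARP10 fell by 0.52 with siOGT1 (SE 0.0486, adjusted p = 0.000119) and by 0.82 with siOGT2 (adjusted p = 3.22e-06), a 1.76-fold lower level. GRINA, which encodes a membrane protein, lies inside the span of PARP10 on the other strand and shares 324 exon bases with it, so that reads there cannot be told apart without strand. GRINA stood at 66.8 and 67.0 FPKM in the siNC libraries, 60.0 and 58.7 in those of siOGT1 and 46.3 and 48.9 in those of siOGT2. It fell by 0.48 with siOGT2 (adjusted p = 1.05e-05) and by 0.17 with siOGT1 (adjusted p = 0.00918). The second call was lost when either siNC library was left out (highest adjusted p = 0.0624 over the alternatives), and the part of the shared bases in either result was not tested.

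**Figure D1:**
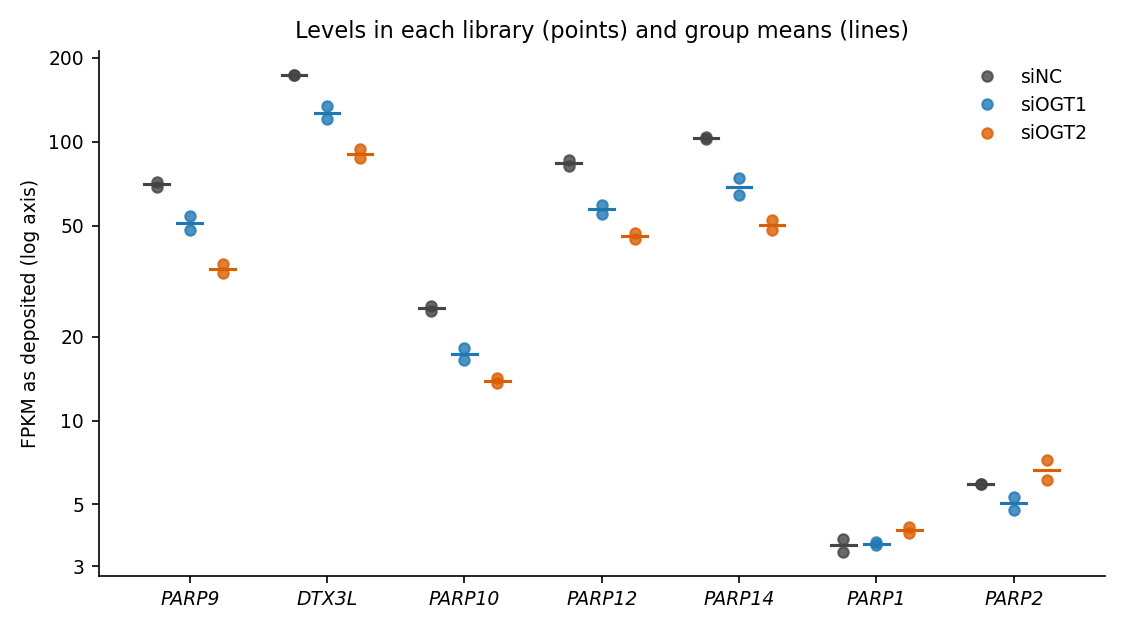
FPKM as deposited, on a log axis, of the 7 genes in each library (points) with the mean of the 2 libraries of a group (lines). The 5 genes on the left step down from siNC to siOGT1 to siOGT2 with no overlap between groups, whereas PARP1 and PARP2 on the right stay between 3.38 and 7.21 FPKM.

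PARP1 is the main sensor of DNA breaks and makes most of the cell's poly-ADP-ribose. Its gene (ENSG00000143799) lies on the minus strand of chromosome 1 at 226360691 to 226408079. It stood at 3.76 and 3.38 FPKM in the siNC libraries, 3.66 and 3.58 in those of siOGT1 and 4.14 and 3.96 in those of siOGT2. The siOGT1 values lie between those of siNC, and both siOGT2 values lie above the other 4. The log2 difference from siNC was 0.02 with siOGT1 (95% confidence interval -0.12 to 0.15, adjusted p = 0.876), a value that was below 0 under quantile normalization, under a trimmed mean of log ratios and without siNC replicate 2. With siOGT2 it was 0.14 (0.01 to 0.28, adjusted p = 0.085). A limma-voom fit on the recovered reads called PARP1 higher with siOGT2 (log2 difference 0.18, adjusted p = 0.00557), so that the call for this gene depends on the model.

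PARP2 is the second enzyme that makes poly-ADP-ribose at breaks. Its gene (ENSG00000129484) lies on the plus strand of chromosome 14 at 20343582 to 20357905. It stood at 5.94 and 5.91 FPKM in the siNC libraries, 4.79 and 5.33 in those of siOGT1 and 7.21 and 6.13 in those of siOGT2. The siOGT1 libraries were the lowest and the siOGT2 libraries the highest, without overlap, but neither group passed the test against siNC. The log2 difference was -0.19 with siOGT1 (-0.36 to -0.03, adjusted p = 0.0969) and 0.14 with siOGT2 (-0.02 to 0.31, adjusted p = 0.149). Without siOGT2 replicate 2 the difference of siOGT2 from siNC was 0.25, with an adjusted p of 0.042. PARP2 had the fewest reads of the 7 genes, 358 to 531 a library, against 5045 to 12860 for PARP9, so that its levels carry more counting error.

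Against siNC, 5 of the 7 genes were called lower and 0 higher with siOGT1, where 8.1% of all tested genes were lower and 9.51% higher. The count was again 5 lower and 0 higher with siOGT2, where 13.4% of genes were lower and 22.1% higher. It was the same for the mean of both siRNAs, where 11.8% were lower and 19.4% higher. The members were chosen with earlier results of these data known, so the contrast with these shares is a description only. At an unadjusted p under 0.05, limma put 0 members higher with siOGT1, 1 with siOGT2 (PARP1) and 0 for the mean, and limma-voom called the same numbers. The median log2 fold change of the 5 induced genes was -0.52 with siOGT1 and -0.93 with siOGT2, beside 0.03 and 0.05 over all tested genes. Scaling by a trimmed mean of log ratios shifted the background but no call of the 5 genes: it gave 537 genes higher and 1020 lower with siOGT1 in place of 1003 and 854, 1437 and 1833 with siOGT2 in place of 2329 and 1411, and 1134 and 1637 for the mean in place of 2041 and 1243. Both comparisons use the same siNC libraries, so they are not independent of each other.

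For the mean of both siRNAs the falls on the log2 scale were 0.80 for PARP14, 0.72 for PARP9, 0.70 for PARP12, 0.69 for DTX3L and 0.67 for PARP10, with adjusted p-values of 2.68e-06 to 7.73e-06. The mean difference was 0.08 for PARP1 (adjusted p = 0.263) and -0.02 for PARP2 (adjusted p = 0.792). The 95% intervals of the 5 falls overlapped one another, and all 5 lay below the intervals of PARP1 (-0.03 to 0.20) and PARP2 (-0.17 to 0.12).

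**Figure D2:**
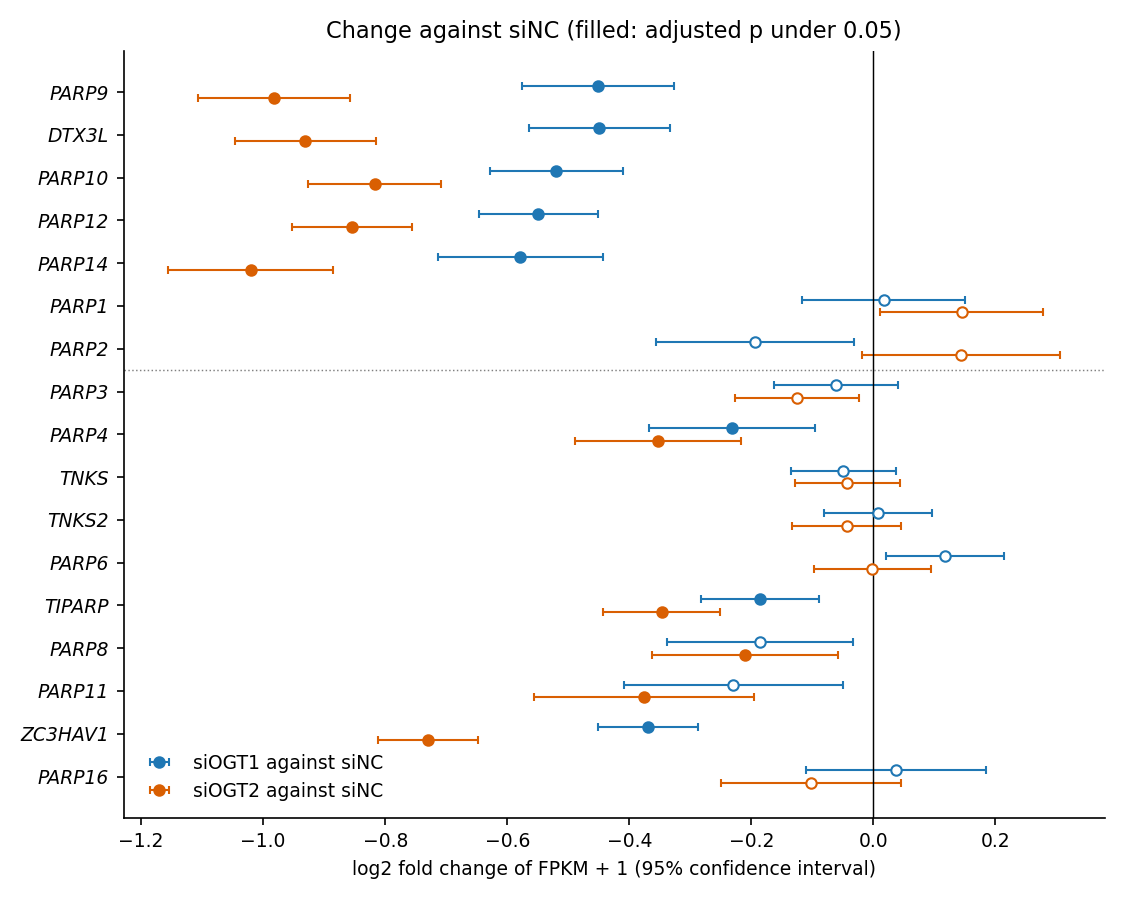
Log2 fold change of FPKM + 1 against siNC, with 95% confidence intervals, for the 7 genes (above the dotted line) and the 10 other tested PARP genes (below it). Filled points passed at an adjusted p under 0.05; the 5 induced genes and ZC3HAV1 lie farthest to the left, and farther with siOGT2.

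The 2 siRNAs differed from each other in the 5 induced genes. Set directly against siOGT2, siOGT1 left PARP9 higher by 0.53 (adjusted p = 0.000268), DTX3L by 0.48 (0.000296), PARP14 by 0.44 (0.00118), PARP12 by 0.31 (0.00156) and PARP10 by 0.30 (0.00332) on the log2 scale. In this comparison 8.35% of all tested genes were higher and 8.24% lower with siOGT1. PARP2 was the member called lower with siOGT1 than with siOGT2, with a log2 difference of -0.34 (adjusted p = 0.0124). That call was lost without siOGT1 replicate 1 (adjusted p = 0.073), without siOGT2 replicate 1 (adjusted p = 0.0766) and with no filter on low values (adjusted p = 0.0778). PARP1 did not pass, at -0.13 (adjusted p = 0.182), though limma-voom called it lower (adjusted p = 0.0232). Which feature of the siRNAs goes with the difference was not tested.

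The induced genes did not keep one ratio to each other under both siRNAs. With siOGT1 PARP9 and DTX3L had the smallest falls of the 5, and with siOGT2 they fell by more than PARP10 and PARP12. The FPKM of PARP9 divided by that of PARP12 was 0.830 and 0.843 in the siNC libraries, 0.914 and 0.876 in those of siOGT1 and 0.774 and 0.751 in those of siOGT2: it was highest with siOGT1 and lowest with siOGT2, and no group overlapped another. PARP10 kept a steadier ratio to PARP12, of 0.299 and 0.302 in the siNC libraries, 0.306 and 0.300 in those of siOGT1 and 0.289 and 0.316 in those of siOGT2. Among the 10 pairs, PARP9 to DTX3L varied least over the 6 libraries (highest over lowest 1.06), then PARP10 to PARP12 (1.09), and PARP9 to PARP10 most (1.26). These ratios are descriptions without a test.

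**Figure D3:**
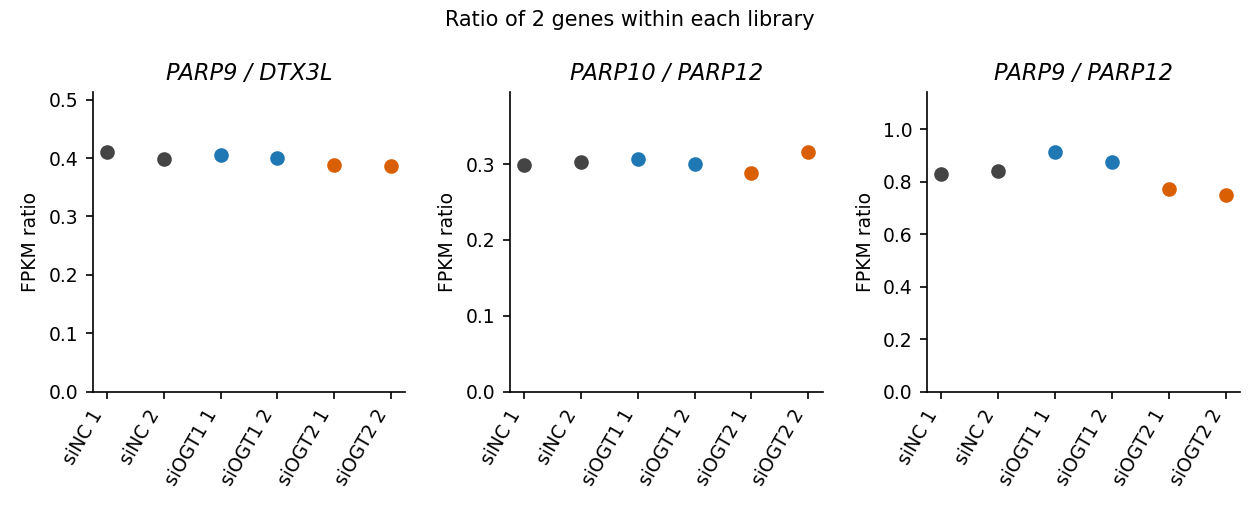
Ratio of the FPKM of one gene to that of another within each library, for PARP9 to DTX3L, PARP10 to PARP12 and PARP9 to PARP12, on axes that start at 0. The first ratio stays between 0.387 and 0.411, while the third runs from 0.751 with siOGT2 to 0.914 with siOGT1.

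Replicates within a group moved together across these genes. Replicate 1 lay above replicate 2 for 5 of 5 induced genes in siNC, for 5 of 5 in siOGT1 and for 4 of 5 in siOGT2, the exception being PARP10. In siOGT1, for example, PARP14 stood at 73.8 and 64.1 FPKM and DTX3L at 134 and 120. The 5 genes are therefore not 5 independent readings of a group. Leaving out any 1 library kept the direction and the call of the 5 genes in every comparison: with siOGT1 the log2 change of PARP9 ran from -0.53 to -0.37 and that of PARP14 from -0.68 to -0.48.

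In control cells the order of levels per length was DTX3L, PARP14, PARP12, PARP9, PARP10, PARP2 and PARP1, with mean FPKM of 174, 103, 84.0, 70.2, 25.2, 5.92 and 3.57. No neighbours in that order overlapped between their 2 siNC libraries. The order of the last pair depends on the gene length. That length was read back from the values after library totals were set with exon-union lengths of GENCODE release 29. The deposited FPKM of PARP1 was divided by 18399 bases, whereas its exons in GENCODE release 29 cover 7169 bases and its longest transcript 3958. For PARP2 the length was 4062 bases, with exons of 4096 and a longest transcript of 1980. Per base of the exon union, PARP1 stood at 9.17 on the FPKM scale and PARP2 at 5.88, and per base of the longest transcript at 16.6 and 12.2, so that PARP1 was then above PARP2. The 5 induced genes kept their order under all 3 lengths, and PARP10, the lowest of them, stood at 43.5 on the longest transcript. The ratio of FPKM between groups of 1 gene does not depend on its length. The tested changes of log2(FPKM + 1) do for low genes such as PARP1, since a greater length lowers the FPKM to which 1 is added.

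**Figure D4:**
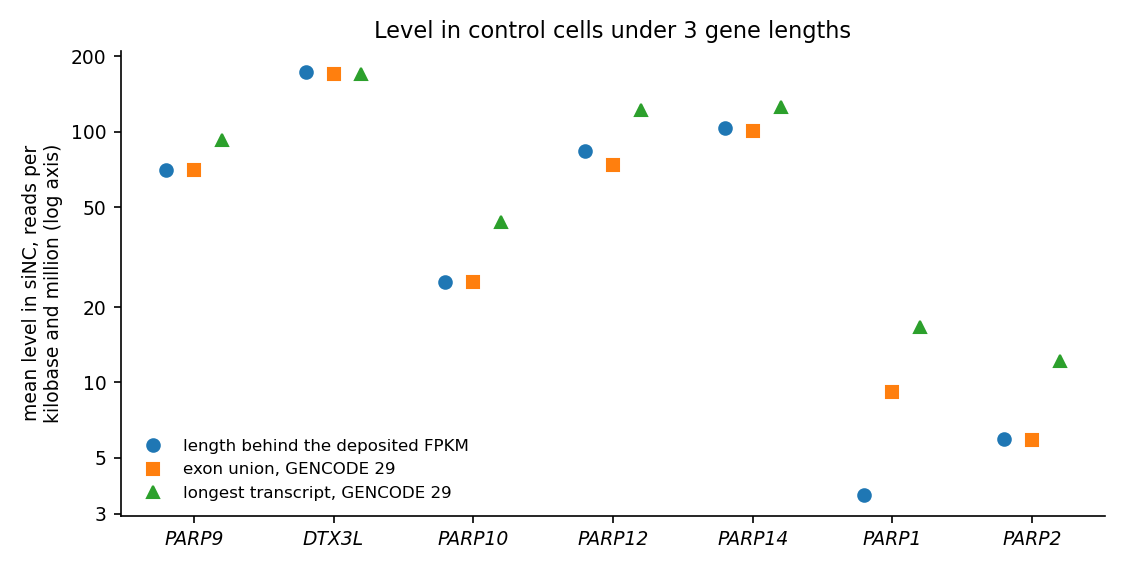
Mean level of each gene with siNC, on the FPKM scale and a log axis, computed with the length behind the deposited FPKM, the exon union or the longest transcript of GENCODE 29. PARP1 moves from 3.57 to 16.6 and from below to above PARP2, while DTX3L stays between 171 and 174.

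The genes around PARP9, DTX3L and PARP14 did not share the size of their change. PARP15, a macrodomain PARP that lies between DTX3L and PARP14, was at 0 to 0.0454 FPKM and was not tested. KPNA1, an importin next to PARP9, differed by 0.16 with siOGT1 and 0.07 with siOGT2 on the log2 scale (adjusted p = 0.0213 and 0.212); the first was not called without either siNC or either siOGT1 library, nor under a trimmed mean. HSPBAP1, next to PARP14, differed by 0.01 with siOGT1 (adjusted p = 0.923) and fell by 0.23 with siOGT2 (adjusted p = 0.00365). Around all members, 24 of 41 neighbours were tested, 4 were higher and 4 lower with siOGT1, 6 higher and 7 lower with siOGT2, and 7 higher and 6 lower for the mean. Their median log2 fold changes were 0.02, 0.04 and 0.02, beside 0.03, 0.05 and 0.04 over all tested genes. Of all tested genes 9.51% were higher and 8.1% lower with siOGT1, 22.1% and 13.4% with siOGT2, and 19.4% and 11.8% for the mean. Beside PARP12, the tested neighbours HIPK2, KDM7A, SLC37A3 and MKRN1 were all lower with siOGT2, where PARP12 fell by 0.85. They fell by 0.12, 0.20, 0.35 and 0.10 (adjusted p = 0.0425, 0.00681, 0.00022 and 0.0355). With siOGT1, HIPK2, KDM7A and SLC37A3 fell by 0.17, 0.19 and 0.16 (adjusted p = 0.0181, 0.013 and 0.0202). MKRN1 differed by -0.01 there (adjusted p = 0.816). The siOGT2 calls of HIPK2 and MKRN1, and all those with siOGT1, were lost under some alternatives.

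**Figure D5:**
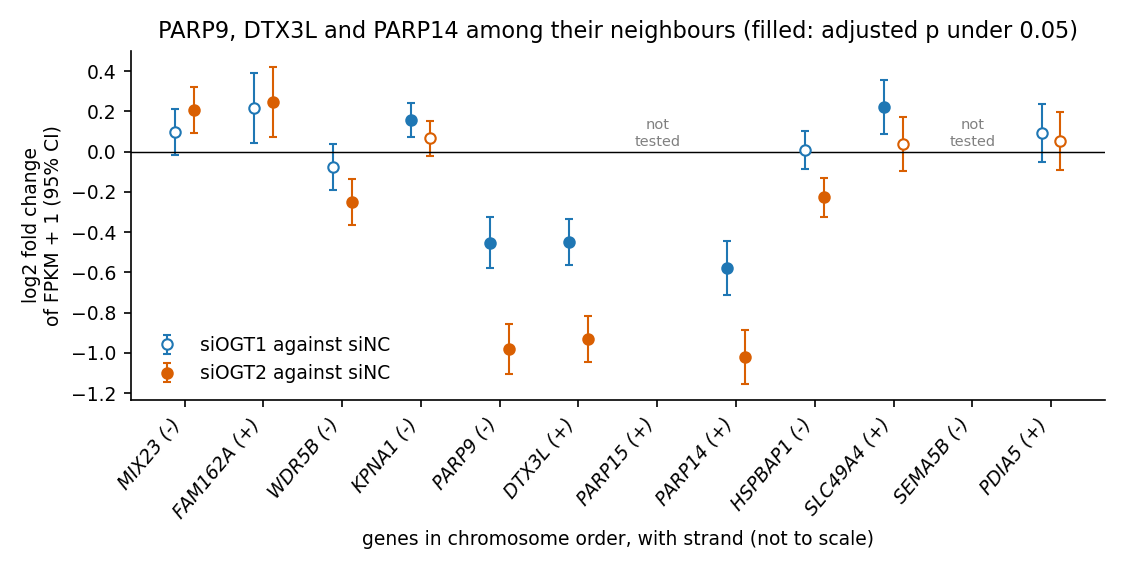
Log2 fold change against siNC, with 95% confidence intervals, of PARP9, DTX3L, PARP14 and the genes beside them in chromosome order (strand in brackets, distances not to scale). The 3 genes lie at -0.45 or lower with either siRNA and their tested neighbours between -0.25 and 0.25.

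The rest of the PARP family moved less. Of 11 other PARP genes 10 were tested, 3 were lower with siOGT1, 5 with siOGT2 and 5 for the mean, and 0 were higher (1, 0 and 0 at an unadjusted p under 0.05, and 1, 0 and 0 by limma-voom), with medians of -0.12, -0.17 and -0.15. Over all tested genes 8.1%, 13.4% and 11.8% were lower and 9.51%, 22.1% and 19.4% higher in the same 3 comparisons. ZC3HAV1, the zinc finger antiviral protein, which binds viral RNA and lacks transferase activity, came closest to the induced members. It stood at 57.7 and 58.7 FPKM in the siNC libraries, 46.2 and 43.5 in those of siOGT1 and 35.1 and 34.2 in those of siOGT2, and fell by 0.37 and 0.73 on the log2 scale (adjusted p = 0.000155 and 1.33e-06). With siOGT2, TIPARP, a mono-ADP-ribosyltransferase induced by the aryl hydrocarbon receptor, fell by 0.35 (adjusted p = 0.000366) and PARP4, of the vault particle, by 0.35 (adjusted p = 0.00223). PARP11 fell by 0.38 with siOGT2 (adjusted p = 0.00658), a call lost without siNC replicate 2 (adjusted p = 0.0553). PARP8 fell by 0.21 (adjusted p = 0.0369), a call lost without siNC replicate 2, without either siOGT2 library and with no filter (adjusted p up to 0.209). TNKS, TNKS2 and PARP16 did not pass in any of the 3 comparisons, under any alternative. PARP3 differed by -0.13 with siOGT2 (adjusted p = 0.0562); it was called lower there with a filter at 5 FPKM, under all 3 other scalings and without siOGT2 replicate 1 (adjusted p down to 0.0209), and for the mean under a trimmed mean (adjusted p = 0.0353). PARP6 differed by 0.12 with siOGT1 (adjusted p = 0.0914) and was called higher there by limma-voom (adjusted p = 0.0348).

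STAT2, IRF1, IRF7 and USP18, of the interferon signalling core, were lower with both siRNAs. Of the 14 tested genes of that list, 7 were lower and 0 higher with siOGT1 (2 higher at an unadjusted p under 0.05 and 1 by limma-voom). With siOGT2 8 were lower and 1 higher, and for the mean 9 were lower and 1 higher. The medians were -0.25, -0.24 and -0.25. Over all tested genes 8.1% were lower and 9.51% higher with siOGT1, 13.4% and 22.1% with siOGT2, and 11.8% and 19.4% for the mean. STAT2 fell by 0.33 and 0.68 with siOGT1 and siOGT2 (adjusted p = 0.00111 and 6.23e-06), IRF7 by 0.61 and 1.26 (adjusted p = 0.000143 and 1.09e-06), and USP18, an interferon-induced inhibitor of the receptor, by 0.94 and 1.74 (adjusted p = 2.86e-05 and 7.05e-07). IRF9 differed by -0.17 with siOGT1 (adjusted p = 0.2) and fell by 0.27 with siOGT2 (adjusted p = 0.0355) and by 0.22 for the mean (adjusted p = 0.048). The siOGT2 call was lost with no filter and without siNC replicate 1, siNC replicate 2 or siOGT2 replicate 2, and the mean call without those libraries or siOGT1 replicate 2 and with no filter, no trend or a pseudocount of 0.1 (adjusted p up to 0.223 and 0.247). IFNAR1, a chain of the type I receptor, was at 5.82 and 5.76 FPKM in the siNC libraries, 2.60 and 2.94 in those of siOGT1 and 6.12 and 5.94 in those of siOGT2. It fell by 0.85 with siOGT1 (adjusted p = 1.63e-05) and differed by 0.05 with siOGT2 (adjusted p = 0.527). The 5 members fell less with siOGT1 than with siOGT2, and a link between IFNAR1 and these genes was not tested.

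Enzymes that remove ADP-ribose showed no shared direction. Of 9 listed genes 8 were tested. With each siRNA 1 was higher and 1 lower, and for the mean 2 were higher and 1 lower. The medians were -0.0048, -0.0015 and -0.0032. Across all tested genes 9.51% were higher and 8.1% lower with siOGT1, 22.1% and 13.4% with siOGT2, and 19.4% and 11.8% for the mean. ADPRS, which takes ADP-ribose off serine, fell by 0.34 with siOGT2 (adjusted p = 0.000532), while NUDT16, a phosphodiesterase that can trim ADP-ribose, rose by 0.29 (adjusted p = 0.00219). PARG, the main enzyme that degrades poly-ADP-ribose chains, differed by -0.12 with siOGT2 (adjusted p = 0.0965) and -0.10 for the mean (adjusted p = 0.125). PARG was called lower with siOGT2 under a trimmed mean, with only the groups compared and without either siOGT1 library (adjusted p down to 0.0356), and for the mean under a trimmed mean and without siOGT1 replicate 2 (down to 0.0318).

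Of 17 genes of NAD+ supply and use 11 were tested. With siOGT1 1 was higher and 2 lower, with siOGT2 2 and 2, and for the mean 2 and 3. The shares over all tested genes were 9.51% and 8.1%, 22.1% and 13.4%, and 19.4% and 11.8%, in the same order. NAMPT, the rate-limiting enzyme of NAD+ salvage, fell by 0.25 with siOGT2 (adjusted p = 0.000883). SIRT1, an NAD+-dependent deacetylase, fell by 0.31 with siOGT2 (adjusted p = 0.000301) and differed by -0.08 with siOGT1 (adjusted p = 0.151). NMRK1 rose by 0.21 with siOGT2 (adjusted p = 0.0127), a call lost without siNC replicate 1 or either siOGT2 library. NADK2 fell by 0.37 with siOGT1 (adjusted p = 0.000725) and differed by -0.04 with siOGT2 (adjusted p = 0.542).

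Of 19 break repair genes, the partners of PARP1 and PARP2, 16 were tested. With siOGT1 1 was higher and 1 lower, with siOGT2 4 and 1, and for the mean 5 and 1. Among all tested genes 9.51% were higher and 8.1% lower with siOGT1, 22.1% and 13.4% with siOGT2, and 19.4% and 11.8% for the mean. The median of the break repair genes was 0.05 for the mean, beside 0.04 over all genes. FEN1, the flap endonuclease, was the lower one, by 0.24 with siOGT1 and 0.20 with siOGT2 as a fall on the log2 scale (adjusted p = 0.00437 and 0.00524). XRCC6, the Ku70 subunit of the Ku heterodimer, was at 140 and 141 FPKM with siNC and 151 to 154 in the other 4 libraries. Its log2 change was 0.12 with each siRNA (adjusted p = 0.0189 with siOGT1 and 0.0094 with siOGT2). Both calls were lost under a trimmed mean and without either siNC library, among other alternatives. Of the 4 other deltex genes, DTX2 and DTX3 were tested, and neither was called by limma or limma-voom or had an unadjusted p under 0.05.

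By profile over the 6 libraries, the genes most like the average of the 5 induced members were ZNFX1, TRIM25, SMTNL1, SPATS2L and HELZ2, with Pearson's r of 0.9988 to 0.9996 on log2(FPKM + 1). Of 10540 other genes, 111 had an r of at least 0.99, and the 6 points share their libraries and fall into 3 groups. HELZ2 had a steeper course, from 44.0 and 41.8 FPKM with siNC to 15.1 and 13.7 with siOGT2, and SPATS2L a shallower one, from 19.4 and 19.0 to 13.5 and 13.0. For PARP1 the closest genes were GCNT1, PIH1D1 and CISD3 (r 0.9858 to 0.9982), and for PARP2 TMPO, CRIPT and ST3GAL5 (r 0.9816 to 0.9952).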

How the data were processed

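RNA of 6 KGN libraries was measured: siNC, siOGT1 and siOGT2, with 2 each, grouped by their titles. Adapters were trimmed with cutadapt 1.15 and reads aligned to GRCh38 with HISAT2, per the submitters' processing notes; for the counter, the annotation and the use of strand nothing is given in the sources used here. The authors deposited FPKM for 20036 genes. FPKM values rest on whole reads, so library totals, gene lengths and reads were recovered from the values (100.0% of tested genes whole within 0.01 reads), and those reads were used in an alternative with limma-voom. The median tested gene had 759 to 970 reads in a library.

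Values were log2(FPKM + 1), which understates changes of low genes. The 10547 genes whose mean FPKM reached 1 were fitted with limma 3.58.1 (R 4.3.3), 1 mean per group over all 6 libraries, with an intensity trend and two-sided tests, and p-values were adjusted by Benjamini-Hochberg over all of them. The fit had 3 residual degrees of freedom. The code was tested on simulated data. Alternatives covered pseudocounts of 0.1 and 5, filters, scaling, the variance trend, a replicate block and leaving out each library.

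The members and lists were chosen with earlier results of these data known. Named were all members, OGT, tested genes of the PARP and interferon signalling lists, up to 4 genes of each other list by smallest p for the mean of both siRNAs, neighbours, and the 5 or 3 genes of the most similar profile. Some genes of the lists are not reported by name here.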

Additional observations from a re-analysis of the deposited data

Results flagged for a closer look

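For 6 of the 7 genes the effects of the 2 OGT siRNAs differed in a direct limma test with Benjamini-Hochberg adjustment. The log2 difference of siOGT1 from siOGT2 was 0.53 for PARP9, 0.48 for DTX3L, 0.44 for PARP14, 0.31 for PARP12 and 0.30 for PARP10, with both siOGT1 libraries above both siOGT2 libraries. It was -0.34 for PARP2, the other way round. OGT differed between the same groups by -0.11 (adjusted p = 0.123). Groups of 2 libraries are too small for a check of single outlying libraries.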

How the results depend on the processing

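PARP9, DTX3L, PARP10, PARP12 and PARP14 kept their direction and their call in all 4 comparisons under every alternative, and the count of members called lower against siNC was 5 throughout. For PARP1 the difference of siOGT1 from siNC changed sign, to -0.00449 with quantile normalization and -0.0113 with a trimmed mean of log ratios, and ran from -0.0423 to 0.0765 with a library left out. For PARP2 the mean difference ran from -0.0761 to 0.0263 with a library left out, above 0 without siOGT1 replicate 1 (0.00761) or siOGT2 replicate 2 (0.0263).

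With the trimmed mean, genes called higher numbered 537 with siOGT1, 1437 with siOGT2 and 1134 for the mean; list genes 1, 5 and 5; and neighbours 1 with siOGT1 and 4 for the mean. With no filter, genes called higher numbered 498 with siOGT1, 1333 for the mean and 524 for siOGT1 against siOGT2, with 493 lower; higher neighbours with siOGT1 numbered 1, and PARP2 was no longer called (0 members lower in siOGT1 against siOGT2). With a filter at 5 FPKM, 12 list genes were lower for the mean, since fewer were tested. With no trend, higher neighbours numbered 2 with siOGT1 and 4 for the mean. Lower neighbours in siOGT1 against siOGT2 numbered 1 with equal sums, no trend, only the groups compared and limma-voom. By limma-voom, 1 member was higher with siOGT2, 2 were lower in siOGT1 against siOGT2, 6 list genes were higher with siOGT1, and OGT was lower with siOGT1 than with siOGT2 (-0.12, adjusted p = 0.0357). Apart from the filters, the cause of these shifts was not tested.

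With each library left out in turn, all genes called lower ran from 538 to 825 with siOGT1, 752 to 1179 for the mean and 399 to 750 for siOGT1 against siOGT2; those called higher ran from 407 to 912, 890 to 1867 and 417 to 783, and from 1241 to 2344 with siOGT2. The lowest counts came without siNC replicate 1 (both with siOGT1, and lower for the mean), siNC replicate 2 (higher for the mean) and siOGT2 replicate 2 (the others). Members called higher with siOGT2, and lower in siOGT1 against siOGT2, ran from 0 to 1. List genes called higher ran from 0 to 4 with siOGT1, 4 to 8 with siOGT2 and 1 to 9 for the mean, and lower from 3 to 5 in siOGT1 against siOGT2. Higher neighbours ran from 0 to 3, 3 to 6 and 2 to 6; lower ones from 0 to 4 with siOGT1, 3 to 5 for the mean and 1 to 1 in siOGT1 against siOGT2, where higher ones ran from 2 to 4.

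Over 10547 genes, deviations of same-numbered libraries correlated at -0.0218, -0.0262 and 0.0494, so no pairing by replicate number showed over all genes. Of the 5 induced members, however, replicate 1 lay above replicate 2 for 5 in siNC, 5 in siOGT1 and 4 in siOGT2. A pairing limited to these genes was not tested. A fit with a replicate block kept 5 members lower against siNC and 828 genes lower and 945 higher with siOGT1 and 1378 and 2258 with siOGT2. Depth limits PARP2 most, at 358 to 531 reads.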
